A study of Mus musculus with 8 samples.

Results

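A set of genes that type I interferon is known to induce was followed in mouse tumour neutrophils sorted by ICAM1, the adhesion molecule CD54. The 34 genes were taken by symbol from a count table of 25572 gene identifiers, 1 row per identifier. All 34 were found, and all 34 passed the filter on low counts that 13575 genes passed. The labels call the cells neutrophils, sorted from PyMT-N tumours carried by C57/B6 mice, a laboratory strain. Neutrophil markers were present in all 8 libraries, but in all 4 CD54-positive libraries the summed macrophage markers were above the summed neutrophil markers. In 4 libraries the cells were ICAM1-high, called CD54-positive here, and in 4 they were ICAM1-low, called CD54-negative. Each group held libraries numbered 1, 2, 3 and 5. Every library was made from 150 pg of total RNA. No treatment, age, genotype or time after tumour inoculation is given in the sources used here, and neither is the sorting gate, the number of animals or any pooling of animals.

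Type I interferons bind the receptor IFNAR on the cell surface. Its kinases JAK1 and TYK2 then activate factors such as STAT2, which joins IRF9 in a complex called ISGF3. That complex binds interferon-stimulated response elements in promoters and switches on a large set of antiviral genes, among them IRF7, which feeds back on interferon production, and USP18 and SOCS1, which dampen the receptor. Neutrophils carry this receptor, and in tumours interferon is known to alter their lifespan and their effect on tumour growth.

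The CD54-positive libraries numbered 1 to 3 held more RNA of 17 of the 34 genes than the CD54-negative library of the same number, in all 3 same-numbered pairs (20.7% of all tested genes did so). They held less of 5 in all 3 pairs (20.3% of all tested genes). No member passed the adjusted threshold in the main test. Mx1, Mx2 and Ifi44 were higher in each of the 4 CD54-positive libraries than in any CD54-negative one (7.51% of all tested genes were), and Ifitm1 and Ifitm6 were lower in each (3.89%). The library labelled CD54-negative replicate 5 held the highest level of 26 of the 34 genes among all 8 libraries, against 21.1% of all tested genes.

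One CD54-negative library went against its label in the RNA of the sorting marker. The sort was on CD54 as a surface protein, which was not measured here and need not follow the RNA. Icam1, which encodes CD54, was at 18.7, 9.25 and 4.31 CPM (counts scaled to a common library size and composition) in CD54-negative libraries 1, 2 and 3. In the library labelled CD54-negative replicate 5 it was at 137.9 CPM. The CD54-positive libraries 1, 2, 3 and 5 held 48.2, 58.4, 42.4 and 121.6 CPM. In Icam1 RNA, libraries 1 to 3 therefore follow their labels, and the one labelled CD54-negative replicate 5 lies above every CD54-positive library. Its summed neutrophil markers, 31946 CPM, were above those of every CD54-positive library, and its macrophage markers, 1118 CPM, were below. Whether its sort or its label differed was not tested. The comparisons are therefore given both with all 8 libraries and with libraries 1 to 3, and where CD54-negative libraries are listed in the order 1, 2, 3 and 5, the last value is that of the library whose Icam1 goes against its label. Library totals ran from 15940328 to 21825096 counts, so that 3 counts correspond to 0.138 to 0.188 CPM before scaling.

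The promoters were compared first, because the interferon-stimulated response element is the sequence these genes are known to share. RefSeq promoter windows (build GRCm38.p6, 250 bases before to 50 after the start) were matched by symbol for 25 of the 34 genes. The core of the element was searched on either strand as GAAA, any 2 bases and GAAA, which on the opposite strand reads TTTC, any 2 bases and TTTC, and overlapping matches were counted. A gene with several starts counted once if any of its windows held a match. It was found in the windows of 13 of the 25 genes (52.0%), against 3.99% of 27025 genes with a window. These 13 are Ifit1, Ifit3, Ifit1bl1, Isg15, Rsad2, Eif2ak2, Oas3, Stat2, Ifih1, Ifitm2, Ifitm3, Bst2 and Trim30a. The 160 bases before the start are printed below, 5′ to 3′ on the gene's own strand, with matches in capitals. The first 5 are of genes with matches and large differences between libraries, and the last 3 are of genes with no match that differed in all 8 libraries.
Ifit1, chr19:34640729-34640888, plus strand: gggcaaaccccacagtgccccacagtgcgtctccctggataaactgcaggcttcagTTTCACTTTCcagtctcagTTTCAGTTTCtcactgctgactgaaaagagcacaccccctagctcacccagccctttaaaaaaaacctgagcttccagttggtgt
Ifit3, chr19:34583369-34583528, plus strand: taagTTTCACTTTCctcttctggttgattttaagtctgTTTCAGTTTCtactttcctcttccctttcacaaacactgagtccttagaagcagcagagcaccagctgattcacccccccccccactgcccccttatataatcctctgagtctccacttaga
Isg15, chr4:156200819-156200978, minus strand: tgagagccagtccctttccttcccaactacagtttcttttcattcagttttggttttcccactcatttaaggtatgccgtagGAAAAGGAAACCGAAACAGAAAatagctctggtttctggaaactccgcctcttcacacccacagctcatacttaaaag
Rsad2, chr12:26456453-26456612, minus strand: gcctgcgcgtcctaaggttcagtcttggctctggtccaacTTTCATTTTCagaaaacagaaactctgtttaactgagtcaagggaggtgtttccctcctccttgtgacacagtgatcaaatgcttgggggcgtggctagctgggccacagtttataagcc
Ifit1bl1, chr19:34601969-34602128, minus strand: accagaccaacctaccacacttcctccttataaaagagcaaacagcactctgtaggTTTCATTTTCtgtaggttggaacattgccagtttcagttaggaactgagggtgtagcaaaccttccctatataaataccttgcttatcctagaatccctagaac
Ifi44, chr3:151749911-151750070, minus strand: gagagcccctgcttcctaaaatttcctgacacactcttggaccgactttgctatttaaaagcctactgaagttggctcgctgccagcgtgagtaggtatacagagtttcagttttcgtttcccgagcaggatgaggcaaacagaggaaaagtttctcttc
Ifitm1, chr7:140967916-140968075, plus strand: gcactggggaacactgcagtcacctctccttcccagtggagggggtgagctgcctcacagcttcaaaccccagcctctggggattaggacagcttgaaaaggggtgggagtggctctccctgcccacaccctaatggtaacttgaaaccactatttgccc
Ifitm6, chr7:141016893-141017052, minus strand: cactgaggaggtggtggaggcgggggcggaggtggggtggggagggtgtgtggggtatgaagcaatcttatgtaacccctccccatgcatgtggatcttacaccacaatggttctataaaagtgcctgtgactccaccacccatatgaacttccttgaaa
In these stretches Ifit1 has 2 matches, which begin 104 and 85 bases before the start. Ifit3 has 2, at 156 and 122 bases. In Isg15, 3 matches overlap in 1 run, beginning 78, 72 and 66 bases before the start. Rsad2 has 1 match at 120 bases, and Ifit1bl1, shown for 1 of its 2 starts, has 1 at 104. Ifi44, Ifitm1 and Ifitm6 hold these letters nowhere in their windows, which says nothing about other forms of the element. Among the classes of genes described next, matches were held by 7 of 13 genes with a window that were highest in both libraries numbered 5. They were held by 4 of 8 that were higher in CD54-positive libraries 1 to 3, and by 1 of 4 that were lower. The first class shares Ifit3, Irf7, Stat2 and Ifih1 with the second, and Ifitm2 and Oasl2 with the third. The counts therefore do not compare separate groups.

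The genes fell into classes by 2 descriptions, neither of them tested. One was whether CD54-positive libraries 1 to 3 all lay above, or all below, CD54-negative libraries 1 to 3. The other was whether both libraries numbered 5 lay above the other 6, whatever their CD54 label. A group of 13 genes was separated upward in libraries 1 to 3 (13.5% of all tested genes were), and 4 were separated downward (12.7%). Both libraries numbered 5 lay above the other 6 for 19 of the 34 genes, against 6.62% of all tested genes.

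Of the 13 genes that were higher in CD54-positive libraries 1 to 3, 7 did not share the pattern of the libraries numbered 5 (12.6% of all tested genes fell into this class). These were Ifit2, Ifit1bl1, Oasl1, Mx1, Mx2, Dhx58 and Ifi44. The other 6, which are Ifit3, Irf7, Stat2, Ifih1, Ifi204 and Parp14, were also above the other 6 libraries in both libraries numbered 5 (0.884% of all tested genes). A further 11 genes overlapped between the groups in libraries 1 to 3 and were highest in both libraries numbered 5 (5.52% of all tested genes). They were Ifit1, Isg15, Usp18, Herc6, Isg20, Cmpk2, Oas2, Zbp1, Ifitm3, Rtp4 and Xaf1. Of these, Ifit1, Usp18, Zbp1 and Xaf1 were also higher in the CD54-positive library in each of pairs 1, 2 and 3, Xaf1 by only 0.03 on the log2 scale in pair 1. With the 13 separated upward they make up the 17 genes higher in all 3 pairs (20.7% of all tested genes were). Ifitm1, Ifitm2, Ifitm6 and Oasl2 were lower in CD54-positive libraries 1 to 3, and 2 of these, Ifitm2 and Oasl2, were also highest in both libraries numbered 5 (0.221% of all tested genes, with 12.5% in the class of the other 2). Rsad2, Eif2ak2, Oas3, Irf9, Bst2 and Trim30a, 6 of the 34, showed neither pattern, as did 68.3% of all tested genes. With library sizes only, Rsad2 joined the genes separated upward, and Oasl2 left those separated downward. The same 2 moves were seen with upper-quartile scaling, and none with RLE scaling. Both libraries numbered 5 then also lay above the other 6 for Rsad2 under either setting and for Eif2ak2 with upper-quartile scaling, and no longer for Zbp1 with library sizes only.

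**Figure D1:**
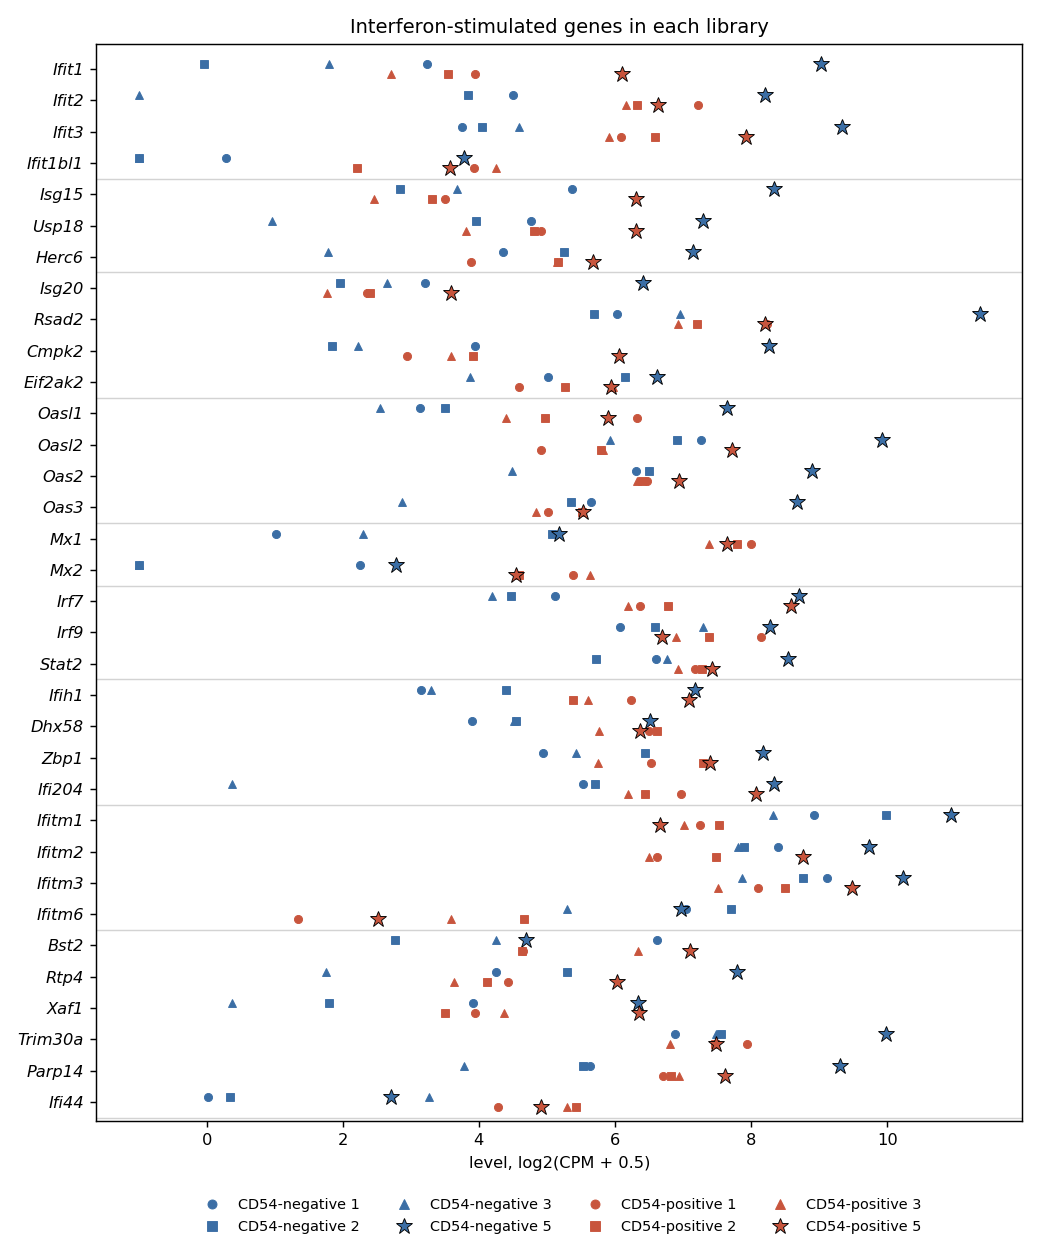
Level of each of the 34 genes in each library, as log2(CPM + 0.5) on the horizontal axis, with genes grouped by role on the vertical axis. Blue marks are CD54-negative and red marks CD54-positive libraries, the shape gives the replicate number, and stars are the libraries numbered 5. The blue star is the rightmost mark for 26 of the 34 genes, while all 4 red marks lie to the right of all 4 blue ones for Mx1, Mx2 and Ifi44.

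The IFIT proteins bind foreign RNA and block its translation. Ifit3 was at 13.01, 16.01, 23.7 and 646.4 CPM in CD54-negative libraries 1, 2, 3 and 5, and at 67.2, 95.4, 59.8 and 242.5 CPM in the CD54-positive ones. Libraries 1 to 3 did not overlap, and within each group the library numbered 5 was the highest. Over libraries 1 to 3 the means were 17.6 ± 5.51 CPM and 74.1 ± 18.8 CPM (SD, n = 3), and edgeR's quasi-likelihood test gave a log2 fold change of 2.10 ± 0.49 (SE) with adjusted p = 0.0503. With all 8 libraries that change was -0.59 ± 1.13, with adjusted p = 0.833. Ifit1bl1, a paralogue of Ifit1, was at 0.717, 0, 0 and 13.2 CPM in CD54-negative and 14.7, 4.11, 18.6 and 11.4 CPM in CD54-positive libraries. It too was separated in libraries 1 to 3, with a log2 fold change of 5.65 ± 1.72 and adjusted p = 0.107 by edgeR. A pair of CD54-negative libraries at 0 makes the size of that fold depend on the prior count. Ifit2 was at 22.2, 13.8, 0 and 294.5 CPM against 148.6, 79.2, 71.1 and 98.3 CPM. Ifit1 had the largest excess in the library labelled CD54-negative replicate 5, 126.4 times the mean of CD54-negative libraries 1 to 3. It was at 8.96, 0.474, 2.98 and 523.3 CPM in CD54-negative and 15.0, 11.2, 6.04 and 68.5 CPM in CD54-positive libraries. Ifit3 has a near-identical neighbour, Ifit3b, so reads may be divided between them.

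ISG15 is a ubiquitin-like protein that is attached to other proteins, HERC6 is its main ligase in mice, and USP18 removes it and also blocks the interferon receptor. Isg15 was at 40.8, 6.64, 12.3 and 324.4 CPM in CD54-negative and 10.8, 9.39, 4.97 and 79.0 CPM in CD54-positive libraries. In 3 of the 4 same-numbered pairs it was lower in the CD54-positive library, and both libraries numbered 5 lay above the other 6. Usp18 was higher in CD54-positive libraries 1 to 3 by pair, at 29.7, 27.6 and 13.6 CPM against 26.8, 15.1 and 1.44 CPM, and the groups overlapped. Its levels in the libraries numbered 5 were 79.1 CPM in the CD54-positive and 156.3 CPM in the one labelled CD54-negative. Herc6 reached 141 CPM in the library labelled CD54-negative replicate 5 and 50.9 CPM in CD54-positive library 5, and lay between 2.93 and 37.8 CPM in the other 6. None of these 3 genes reached an unadjusted p of 0.05 in either comparison.

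Viperin, encoded by Rsad2, makes a chain-terminating nucleotide that stops viral polymerases, and Cmpk2, its neighbour in the genome, encodes a kinase of nucleotides. Rsad2 was at 64.7, 51.2, 124 and 2645 CPM in CD54-negative and 300.9, 146.5, 120.9 and 295.6 CPM in CD54-positive libraries. The 2645 CPM in the library labelled CD54-negative replicate 5 was the highest level of any member in any library on this scale, which does not correct for gene length. In libraries 1 to 3 the groups overlapped, since CD54-negative library 3 lay above CD54-positive library 3, and the log2 fold change was 1.26 ± 0.50 with adjusted p = 0.205 by edgeR. Cmpk2 was at 14.9, 3.08, 4.15 and 307.3 CPM against 7.17, 14.5, 11.6 and 66.0 CPM, highest in both libraries numbered 5. Isg20, an exonuclease, had 84.4 CPM in the library labelled CD54-negative replicate 5 and 2.90 to 11.5 CPM in the other 7. Eif2ak2 encodes PKR, the kinase that halts translation on sensing double-stranded RNA. Its levels overlapped, at 14.1 to 98.1 CPM in CD54-negative and 23.7 to 62.0 CPM in CD54-positive libraries.

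The OAS enzymes make oligoadenylates that activate RNase L, and the OAS-like proteins Oasl1 and Oasl2 modulate RNA sensing. The 4 genes differed among themselves. Oasl1 was at 8.30, 10.8, 5.32 and 199.7 CPM in CD54-negative and 79.3, 30.9, 20.7 and 59.0 CPM in CD54-positive libraries. CD54-positive libraries 1 to 3 lay above CD54-negative ones, with a log2 fold change of 2.43 ± 0.69 and adjusted p = 0.0863 by edgeR. Over all 8 libraries the value was -0.24 ± 1.04, with adjusted p = 0.931. Oasl2 went the other way in libraries 1 to 3, at 152.9, 119.4 and 60.2 CPM in CD54-negative and 29.6, 54.8 and 56.3 CPM in CD54-positive libraries. That difference, -1.22 ± 0.50 on the log2 scale, had adjusted p = 0.215 by edgeR, and the separation was lost with library sizes only and with upper-quartile scaling. Both libraries numbered 5 held more Oasl2, at 973 CPM in the one labelled CD54-negative and 210.3 CPM in the CD54-positive one. Oas2 overlapped between groups in libraries 1 to 3, at 22.04 to 90.1 CPM and 79.9 to 88.4 CPM. Oas3 overlapped as well, at 6.82 to 49.5 CPM and 28.1 to 45.1 CPM. In the library labelled CD54-negative replicate 5 these genes stood at 474.8 and 408.3 CPM.

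Mx1 and Mx2 belong to the Mx family of dynamin-like GTPases, of which functional forms trap viral components. In C57BL/6 mice, as in most inbred strains, the Mx1 gene carries a deletion and gives no functional protein, although its RNA can be measured. Whether Mx2 gives a functional protein in these mice was not examined here. Mx1 was at 1.54, 33.2, 4.42 and 35.8 CPM in CD54-negative and 255.2, 220.6, 165.9 and 199.9 CPM in CD54-positive libraries. Each CD54-positive library held several times the highest CD54-negative one. The log2 fold change was 3.49 ± 0.87 over all 8 libraries (adjusted p = 0.0729 by edgeR) and 4.05 ± 0.98 over libraries 1 to 3 (adjusted p = 0.0564). Mx2 was at 4.25, 0, 0 and 6.40 CPM against 41.2, 23.5, 49.0 and 22.9 CPM, again without overlap. Its log2 fold change was 3.68 ± 1.45 over all 8 libraries, with adjusted p = 0.230, and 4.72 ± 1.69 over libraries 1 to 3, with adjusted p = 0.162, both by edgeR. Ifi44, an interferon-induced protein with a GTP-binding motif, shared this pattern. It was at 0.512, 0.771, 9.16 and 6.05 CPM in CD54-negative and 19.0, 42.5, 38.7 and 29.7 CPM in CD54-positive libraries. The edgeR change of Ifi44 was 2.98 ± 0.92 (adjusted p = 0.141) over all 8 libraries and 3.30 ± 1.11 (adjusted p = 0.140) over libraries 1 to 3. Of all tested genes, 7.51% were higher in all 4 CD54-positive libraries than in all CD54-negative ones, against 3 of the 34 members.

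**Figure D2:**
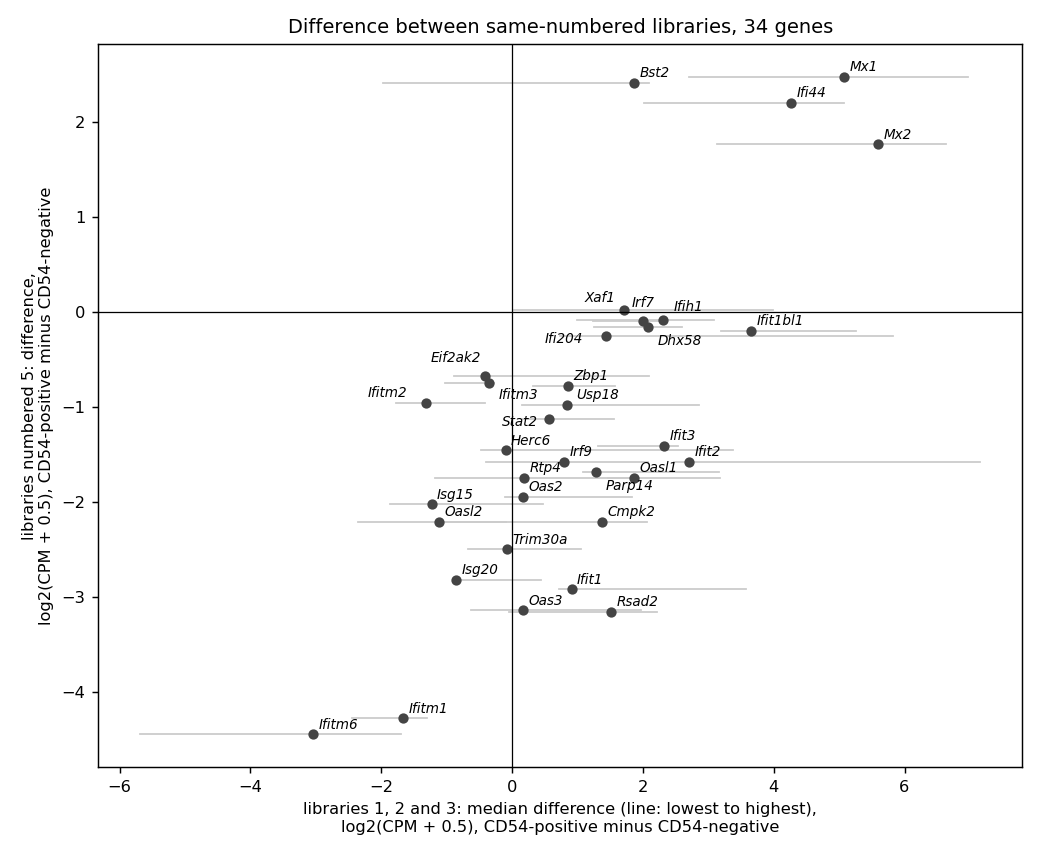
Difference between same-numbered libraries, CD54-positive minus CD54-negative, in log2(CPM + 0.5), for each of the 34 genes. The horizontal axis gives the median of pairs 1, 2 and 3, with a line from the lowest to the highest, and the vertical axis gives the pair numbered 5. Mx1, Mx2, Ifi44 and Bst2 lie at least 1 above zero on the vertical axis, and 19 genes lie at least 1 below it.

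Among the transcription factors, STAT2 and IRF9 are parts of ISGF3, and IRF7 drives interferon genes. Irf7 was at 34.3, 21.8, 17.7 and 414.8 CPM in CD54-negative and 81.8, 109.6, 72.4 and 385.8 CPM in CD54-positive libraries. The library numbered 5 was the highest of each group, and libraries 1 to 3 did not overlap. Over libraries 1 to 3 the edgeR log2 fold change was 1.85 ± 0.47 with adjusted p = 0.0624, and over all 8 it was 0.41 ± 0.99 with adjusted p = 0.870. Stat2 was separated more narrowly in libraries 1 to 3, at 52.3 to 108.1 CPM against 121.5 to 155 CPM, and both libraries numbered 5 lay above these. Irf9 overlapped, at 66.8, 95.8, 157.2 and 308.5 CPM against 284, 166.3, 118.7 and 103 CPM.

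The nucleic acid sensors on the list detect viral or misplaced RNA and DNA. Ifih1 encodes MDA5, a sensor of long double-stranded RNA, and Dhx58 encodes LGP2, which modulates it. Dhx58 was at 14.4, 22.8, 22.4 and 91.1 CPM in CD54-negative and 90.0, 97.8, 53.7 and 81.7 CPM in CD54-positive libraries. The means over libraries 1 to 3 were 19.9 ± 4.71 and 80.5 ± 23.55 CPM (SD, n = 3), and the edgeR change was 2.04 ± 0.48 on the log2 scale with adjusted p = 0.0511. With all 8 libraries it was 1.10 ± 0.60, with adjusted p = 0.381. Only the library labelled CD54-negative replicate 5 reached the levels of the CD54-positive group. Ifih1 was at 8.35, 20.6, 9.32 and 144.3 CPM against 74.8, 41.3, 48.0 and 135.4 CPM, with 2.11 ± 0.58 and adjusted p = 0.078 over libraries 1 to 3 by edgeR, and 0.72 ± 0.87 with adjusted p = 0.719 over all 8. Ifi204, a member of the DNA-sensing p200 family, was at 45.9, 51.9, 0.799 and 322.7 CPM against 124.6, 86.2, 72.8 and 268.6 CPM. Its family holds close copies, so reads may be divided between them. Zbp1, a sensor of Z-form nucleic acids that can start necroptosis, was higher by pair in libraries 1 to 3, at 91.6, 157.2 and 53.4 CPM against 30.3, 86.2 and 42.7 CPM. The groups overlapped for Zbp1.

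The IFITM proteins sit in cell and endosome membranes and hinder viral fusion. Ifitm1, Ifitm2 and Ifitm3 were the most abundant members per gene length. On the scale of TPM, which corrects for gene length, the medians over the 8 libraries were 1311 for Ifitm3, 917 for Ifitm1 and 797 for Ifitm2, and the next member, Zbp1, was at 120.2. In libraries 1 to 3 the fitted change was negative for all 4 IFITM genes, while it was positive for 26 of the 34 members. Ifitm1 was at 483.7, 1010, 318.4 and 1968 CPM in CD54-negative and 152.2, 184.4, 128.7 and 101.1 CPM in CD54-positive libraries. Ifitm6 was at 130.8, 208.4, 38.7 and 125 CPM against 2.04, 24.9, 11.6 and 5.25 CPM. Every CD54-positive library lay below every CD54-negative one for both genes, as for 3.89% of all tested genes. By edgeR over all 8 libraries, the log2 fold change of Ifitm1 was -2.74 ± 0.61 with adjusted p = 0.0511. That of Ifitm6 was -3.52 ± 0.80 with adjusted p = 0.0555. Libraries 1 to 3 alone gave -1.94 ± 0.48 (adjusted p = 0.0581) and -3.27 ± 0.90 (adjusted p = 0.0794) by edgeR. Ifitm2 was lower in CD54-positive libraries 1 to 3 without overlap, at 97.9, 177.8 and 89.9 CPM against 337.9, 238.6 and 224.4 CPM. Its 2 libraries numbered 5 were the highest of their groups, at 434 and 847.3 CPM. Ifitm3 was lower by pair in all 4 pairs, and the groups overlapped, at 182.3 to 717.1 CPM in CD54-positive and 232.7 to 1206 CPM in CD54-negative libraries.

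The remaining effectors were mixed. Parp14, an ADP-ribosyltransferase, was at 48.9, 45.7, 13.3 and 633.4 CPM in CD54-negative and 103.8, 112.6, 122.3 and 196 CPM in CD54-positive libraries. CD54-positive libraries 1 to 3 were close to each other and above all 3 CD54-negative ones, with 1.66 ± 0.54 on the log2 scale and adjusted p = 0.126 by edgeR. With all 8 libraries Parp14 was at -0.47 ± 0.95, with adjusted p = 0.842. Bst2, which encodes tetherin, a protein that holds budding virus at the cell surface, had another order. It was at 97.6, 6.29, 18.5 and 25.4 CPM in CD54-negative and 24.5, 24.4, 80.1 and 137.3 CPM in CD54-positive libraries, so CD54-positive library 5 was the highest of the 8. Xaf1, which encodes a protein that favours apoptosis, was at 14.6, 2.97, 0.799 and 80.2 CPM against 14.9, 10.8, 20.1 and 81.2 CPM, nearly level between the libraries numbered 5. Rtp4, which encodes a receptor transport protein, was at 2.88 to 39.0 CPM in libraries 1 to 3 and at 220.4 and 65.1 CPM in the libraries numbered 5, CD54-negative by label first. Trim30a, a negative regulator of NF-kappaB signalling, was at 111.4 to 244.7 CPM in 7 libraries and at 1011 CPM in the one labelled CD54-negative replicate 5. Trim30a has close copies, and its count may be shared with them.

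Across the list, no member was past an adjusted p of 0.05 by edgeR over all 8 libraries, where 1.22% of all tested genes were called higher and 0.273% lower. At an unadjusted p under 0.05 there were 3 higher (Mx1, Mx2 and Ifi44, against 7.96% of all tested genes) and 2 lower (Ifitm1 and Ifitm6, against 8.96%). DESeq2 called the same 5 genes at an adjusted p under 0.05, where it called 4.24% of all tested genes higher and 4.75% lower, and limma-voom called 4 higher and 2 lower (3.54% and 2.77%). At least Ifit3, Irf7 and Parp14 were given no adjusted p by DESeq2 over all 8 libraries and so could not be called. Genes without one count as not called in its percentages. EdgeR again called none over libraries 1 to 3, where 1.59% of 13778 tested genes were called higher and 1.38% lower. There, 12 members were higher at an unadjusted p under 0.05 (9.09% of all tested genes) and 4 were lower (9.90%). The 12 were Ifit2, Ifit3, Ifit1bl1, Rsad2, Oasl1, Mx1, Mx2, Irf7, Ifih1, Dhx58, Parp14 and Ifi44. The 4 were Oasl2, Ifitm1, Ifitm2 and Ifitm6. DESeq2 called 9 higher and 2 lower over libraries 1 to 3 (5.81% and 6.84% of all tested genes), and limma-voom 6 and 2 (2.81% and 4.33%). The median log2 fold change of the 34 genes was -0.44 over all 8 libraries, where that of all tested genes was -0.07, and 0.79 over libraries 1 to 3, where it was 0.01. The first of these turned positive under other settings, at 1.25 without the library labelled CD54-negative replicate 5, 0.79 without both libraries numbered 5, 0.93 with limma-voom, 0.42 with the replicate number as a term and 0.04 with library sizes only. It was positive for 26 of the 34 genes over libraries 1 to 3 (50.3% of all tested genes) and for 13 over all 8 (47.7%).

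With 1 library left out at a time, the result over all 8 libraries changed most without the library labelled CD54-negative replicate 5. Without it, edgeR called 5 members higher in CD54-positive libraries, against 2.36% of all tested genes, and 2 lower, against 1.69%. Ifit3 rose by 2.72 ± 0.59 on the log2 scale (adjusted p = 0.035), Dhx58 by 2.03 ± 0.44 (adjusted p = 0.0349) and Mx1 by 4.02 ± 0.93 (adjusted p = 0.0419) in that edgeR fit. Irf7 rose by 2.71 ± 0.66 (adjusted p = 0.0485) and Ifih1 by 2.55 ± 0.59 (adjusted p = 0.0427). Ifitm1 fell by 2.09 ± 0.46 (adjusted p = 0.0363) and Ifitm6 fell by 3.51 ± 0.83 (adjusted p = 0.0434). CD54-positive library 5 stayed in this fit, and it was the highest CD54-positive library for Ifit3, Irf7 and Ifih1. With both libraries numbered 5 left out, edgeR called 0 members. The log2 fold changes of Ifit3 and Irf7 were then 2.10 ± 0.49 and 1.85 ± 0.47. Without CD54-negative library 3 instead, Ifitm1 (-3.02 ± 0.56, adjusted p = 0.0335 by edgeR) and Ifitm6 (-3.82 ± 0.76, adjusted p = 0.0411) were called lower and no member higher. Leaving out any of the other 6 libraries gave no call. Within libraries 1 to 3, 1 member was called higher without each CD54-negative library in turn, where 31, 169 and 174 genes were called in all without library 1, 2 and 3. These were Mx2 without library 1 (adjusted p = 0.040 by edgeR, with both remaining CD54-negative libraries at 0), Mx1 without library 2 (6.19 ± 0.71, adjusted p = 0.0305) and Ifi44 without library 3 (5.69 ± 0.88, adjusted p = 0.0331). In each case the library left out held the highest level of that gene among CD54-negative libraries 1 to 3.

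**Figure D3:**
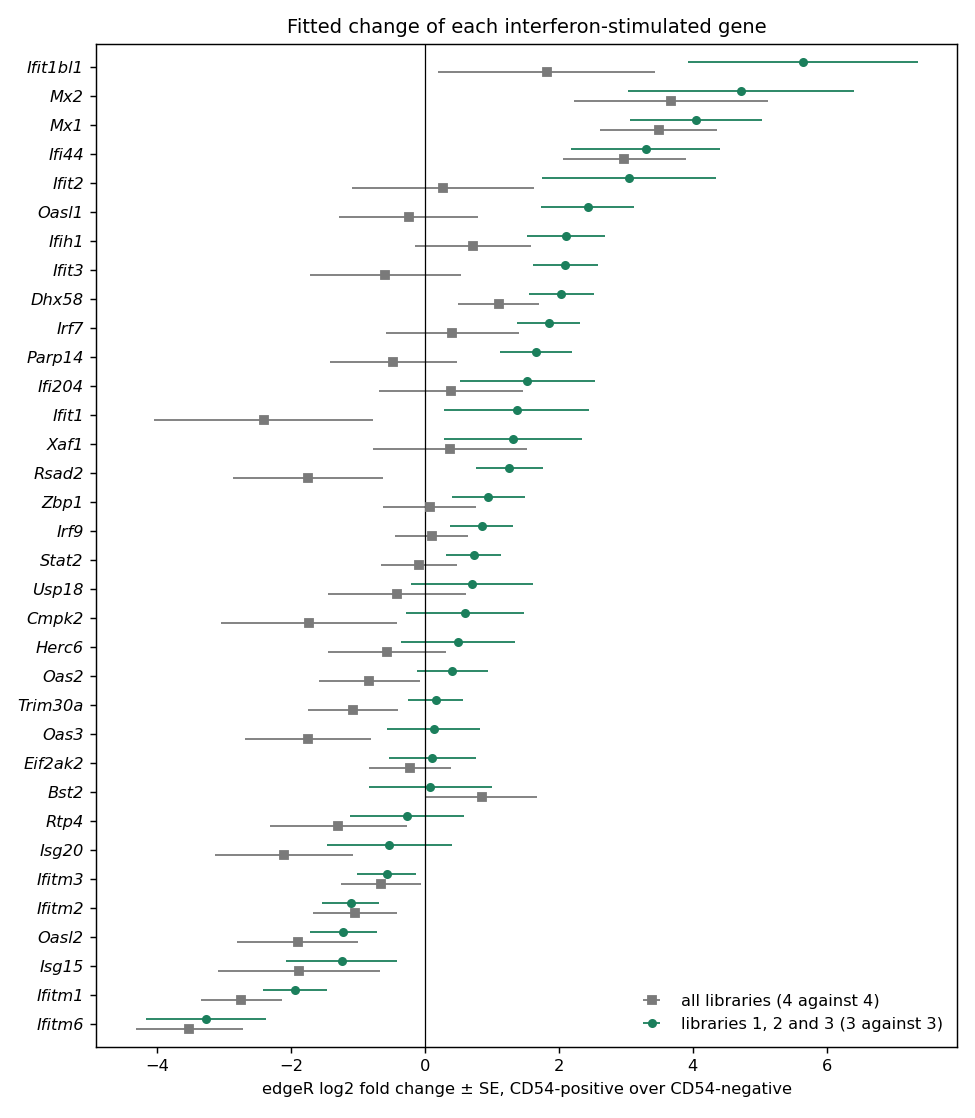
Log2 fold change of CD54-positive over CD54-negative libraries for each of the 34 genes, as fitted by edgeR, with bars of 1 standard error. Grey squares use all 8 libraries and green circles use libraries 1, 2 and 3, and genes are sorted by the second. For Ifit3 the value moves from -0.59 with all libraries to 2.10 with libraries 1 to 3, while Mx1 stays between 3.49 and 4.05.

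Whether the CD54 difference itself differed between the libraries numbered 5 and those numbered 1 to 3 was tested with an interaction term. With 1 library per group numbered 5, each was assumed to vary like the others. None of the 34 passed an adjusted p of 0.05 by edgeR, where 2 of 13575 genes passed upward (0.0147%) and 0% passed downward. At an unadjusted p under 0.05, 13 members had a lower difference in the libraries numbered 5 and none a higher one, against 5.51% and 6.57% of all tested genes. Rsad2 had the smallest p, with an interaction of -4.41 ± 1.04 on the log2 scale (adjusted p = 0.259), followed by Ifit3 with -3.49 ± 0.85 (adjusted p = 0.259), both by edgeR. DESeq2 called Ifit3, Rsad2, Oasl1 and Parp14, all downward, where it called 1.59% of all tested genes downward and 1.61% upward, and limma-voom called none. Each arm numbered 5 is 1 library, 1 of them with Icam1 against its label, so neither these calls nor their absence shows a replicated difference. For Mx1 the interaction was -1.55 ± 1.74 and for Ifi44 it was -0.97 ± 2.04, so these data leave wide intervals for them. In the pair numbered 5 itself, 19 members were lower in the CD54-positive library by at least 1 on the log2 scale of CPM + 0.5 (25.7% of all tested genes) and 4 were higher (34%). Those 4 were Mx1, Mx2, Bst2 and Ifi44.

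The library labelled CD54-negative replicate 5 differed from its group over the whole transcriptome as well as in these genes. Across genes, its log2 CPM correlated with CD54-negative libraries 1, 2 and 3 at 0.72, 0.73 and 0.63, while these correlated with each other at 0.83 to 0.86. Its TMM scaling factor was 0.718, the lowest of the 8, where the others ran from 0.956 to 1.17. The library labelled CD54-negative replicate 5 was the highest of its group for 31 members, against 31.8% of all tested genes, the exceptions being Ifitm6, Bst2 and Ifi44. Its level was a median of 9.30 times the mean of CD54-negative libraries 1 to 3, with a range of 0.624 to 126.4, and at least 10 times it for 16 members. The median over all tested genes was 0.780, and 3.32% of them were at least 10 times. CD54-positive library 5 was the highest of its group for 21 members (28.4% of all tested genes), with a median of 1.70 times the mean of CD54-positive libraries 1 to 3 and a range of 0.409 to 9.41. The median over all tested genes was 0.903. No replicate exists for either, so these ratios have no error, and they have no test.

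Other genes of the pathway were counted in the same fit, from lists made with earlier results of these data known. Of the 15 interferon ligands listed, 3 were in the table (Ifnb1, Ifnk and Ifng), and none passed the filter. Ifnb1 was at 0 in 6 libraries, and at 0.483 and 0.0552 CPM in CD54-positive libraries 3 and 5. The level in CD54-positive library 5 is below that of 3 counts, 0.166 CPM after scaling. Ifnk was highest in the library labelled CD54-negative replicate 5, at 0.789 CPM, and lay at 0 to 0.161 CPM in all others. Ifng, the type II interferon, was at 0 in every CD54-negative library and at 1.85 and 2.43 CPM in CD54-positive libraries 2 and 5. Of the 9 receptor chains and Janus kinases, none was past the threshold over all 8 libraries. The 2 with the smallest p were Jak2, at -1.43 ± 0.59 on the log2 scale with adjusted p = 0.246, and the receptor chain Ifnar1, at 0.73 ± 0.42 with adjusted p = 0.402, both by edgeR. Of 10 signalling factors, 1 was higher and none lower. This was Irf8, a factor of monocyte and dendritic cell development, at 33.0, 43.7, 40.5 and 10.4 CPM in CD54-negative and 599.7, 428.8, 359.1 and 296.6 CPM in CD54-positive libraries. Irf8 rose by 3.72 ± 0.55 on the log2 scale, with adjusted p = 0.0125 by edgeR.

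None of 15 sensing genes was past the threshold over all 8 libraries. The RNA sensor Tlr7 came nearest, at 2.82 ± 0.63 with adjusted p = 0.053 by edgeR, followed by the kinase Ikbke at 1.48 ± 0.52 with adjusted p = 0.183. None of 10 negative regulators passed either. Nlrx1 was at -1.45 ± 0.59 and Socs3, the cytokine signalling suppressor, at -1.01 ± 0.63, with adjusted p = 0.241 and adjusted p = 0.447 by edgeR. Of 46 further interferon-stimulated genes tested, 2 were higher and none was lower. Ccl12, a monocyte-attracting chemokine, rose by 3.85 ± 0.54 on the log2 scale (adjusted p = 0.0119 by edgeR), and the membrane protein gene Ms4a4c rose by 4.29 ± 0.84 (adjusted p = 0.0348). Neither was raised in the library labelled CD54-negative replicate 5, where Ccl12 was at 2.37 and Ms4a4c at 2.90 CPM, within or below the range of the other CD54-negative libraries. Without CD54-negative library 1, none of Irf8, Ccl12 and Ms4a4c passed, with edgeR adjusted p of 0.0521, 0.0521 and 0.0731. Irf8 and Ccl12 passed without any other single library, and Ms4a4c also missed without CD54-negative library 2 or CD54-positive library 1, 2 or 5. Without the library labelled CD54-negative replicate 5, 17 of the 89 pathway genes tested passed, against 3 with all 8 libraries. Of all tested genes, 2.36% were then called higher and 1.69% lower, against 1.22% and 0.273% with all 8. The further genes had a median log2 fold change of 0.59 over all 8 libraries and 1.18 over libraries 1 to 3. For 17 of the 46, both libraries numbered 5 lay above the other 6 (6.62% of all tested genes), and for 27 CD54-positive libraries 1 to 3 lay above CD54-negative ones (13.5%). In the 3 against 3 comparison edgeR called 6 of the 46 higher, which were Ccl12, Epsti1, Ifi205, Ifi207, Tor3a and Trim21, together with Irf8, Irf5, Cgas and Nlrc5 from the other lists, and none lower. Of all tested genes, 1.59% were called higher and 1.38% lower there.

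Markers of other cells differed between the groups and are given for the whole lists. The 14 neutrophil markers, which include Ly6g, S100a8 and Csf3r, were above 0 in every library. They summed to 7786 to 31946 CPM in CD54-negative and 1523 to 4670 CPM in CD54-positive libraries, with the highest sum in the library labelled CD54-negative replicate 5. The 14 macrophage markers summed to 804 to 1118 CPM in CD54-negative and 5518 to 15949 CPM in CD54-positive libraries. In the library labelled CD54-negative replicate 5 they were at 1118 CPM, and Gpnmb was at 0 there and in CD54-negative library 3. The 11 conventional dendritic cell markers summed to 133 to 258 CPM and 1611 to 3150 CPM, and Flt3 was at 0 in every CD54-negative library. The 7 monocyte markers ran the other way, at 8238 to 15409 CPM and 2961 to 5338 CPM. The 8 markers of plasmacytoid dendritic cells, a main source of type I interferon, were lowest in the libraries numbered 5, at 288.5 CPM in the one labelled CD54-negative and 178.4 CPM in the CD54-positive one, against 549 to 1709 CPM in the others. Of these, Cox6a2 and Klk1 were at 0 in every CD54-negative library. The sum did not follow the number of these markers found. CD54-negative library 3 had the highest sum, 1709 CPM, with 5 of the 8 at 0, Siglech among them. CD54-positive library 5 had the lowest sum with 0 of the 8 at 0. The sum is thus no measure of how many such cells a library held. T and NK cell markers summed to 6.40 to 54.9 CPM and 121 to 414 CPM, and B and plasma cell markers to 48.8 to 428.8 CPM and 280 to 2171 CPM. Fibroblast markers were at 1888 to 3544 CPM and 656 to 2848 CPM. Epithelial markers were at 0.373 to 65.4 CPM and 8.17 to 24.6 CPM, endothelial markers at 1.60 to 24.9 CPM and 19.5 to 67.0 CPM, and erythroid or platelet markers at 0.213 to 12.6 CPM and 1.88 to 24.9 CPM. Of the 14 T and NK cell markers, 9 were at 0 in the library labelled CD54-negative replicate 5, Cd3e and Trac among them. The part of these cells in the differences of the interferon-stimulated genes was not tested, and in sorted bulk RNA fewer cells of a type and less RNA per cell cannot be told apart.

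**Figure D4:**
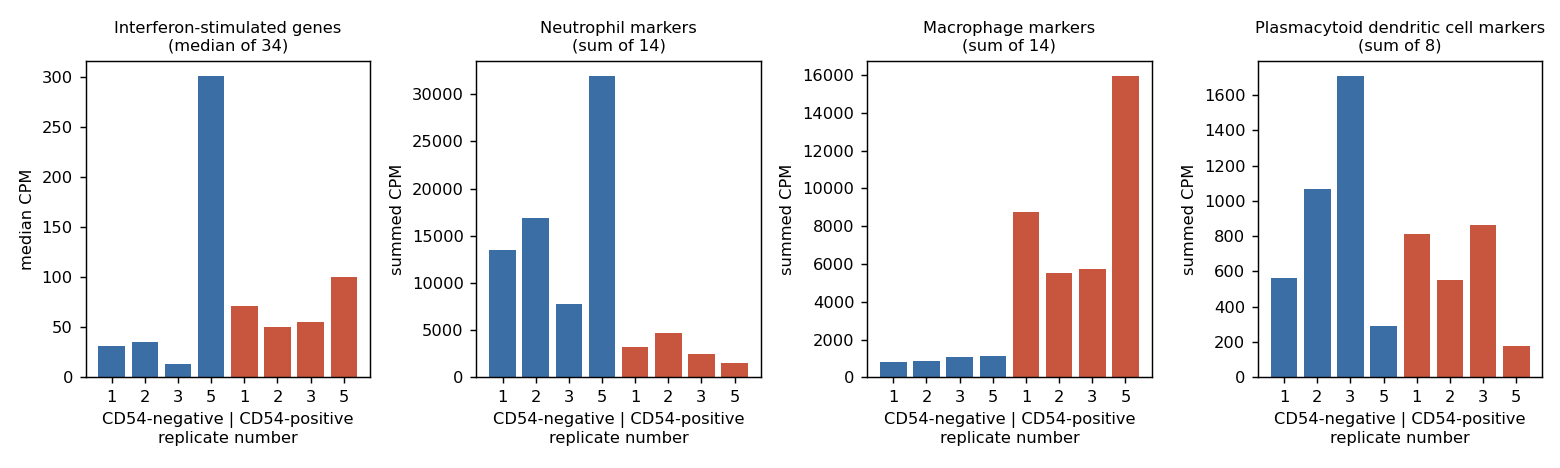
Median level of the 34 interferon-stimulated genes and summed levels of neutrophil, macrophage and plasmacytoid dendritic cell markers in each library, in CPM on linear axes from 0. Blue bars are CD54-negative and red bars CD54-positive libraries, each bar 1 library by replicate number. In the library labelled CD54-negative replicate 5 the interferon-stimulated genes reach a median of 300.9 CPM and the neutrophil markers 31946 CPM, while macrophage markers stay at 1118 CPM.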

How the data were processed

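The 8 libraries were measured by RNA sequencing. A Qiagen RNeasy Micro kit gave the RNA, of which 150 pg entered a Qiaseq library kit meant for single cells, per the labels' protocols. The submitters' processing notes name Trim Galore 0.6.6, Salmon 1.9.0 and the build GRCm39 (mm39). The authors deposited 1 table of estimated counts per gene, not normalized, with gene identifiers, symbols and lengths. No source used here gives the annotation or settings. The table had 25669 rows, and identifiers repeated under several symbols with identical values were kept once, which left 25572.

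Estimated counts were rounded. Genes were filtered with filterByExpr by group, libraries were scaled by TMM, and CD54-positive was compared with CD54-negative libraries by the quasi-likelihood test of edgeR 4.0.16 (R 4.3.3), with group as the only term, on all genes. P-values were adjusted by Benjamini-Hochberg over all tested genes, with a threshold of 0.05. There were 3 fits, over all 8 libraries (13575 genes), over libraries 1 to 3 (13778 genes) and with an interaction of group and number 5. Fold changes are given with their standard error, which is the size of the change divided by the square root of F. CPM values are counts over the TMM-scaled library size, and TPM were computed from the counts and deposited lengths. The labels do not tie libraries to separate animals, and a p-value here reflects only how far these libraries spread, some of which can be technical. No molecular identifiers are mentioned, so counts need not equal molecules, and limits from 3 counts cover counting error only.

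Values in every library are given for the 12 members with the smallest p over libraries 1 to 3. Those of other members were chosen for print after their values were seen. From each pathway list, the members past the threshold, otherwise the 2 with the smallest p, are named. The members and all lists were chosen with earlier results of these data known. The alternatives tried were DESeq2 1.42.0, limma-voom (limma 3.58.1) with sample weights, upper-quartile, RLE or no scaling beyond library size, a filter of 10 CPM or none beyond 1 count, a replicate block, leaving out each library and, for pairs, a pseudocount of 5 in place of 0.5.

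The fits were also checked on simulated counts, drawn from the means and library sizes found here. Their spread was that of all 8 libraries with group as the only term, and it was used for every fit. With 50 genes at each of 2-, 4-, 8- and 16-fold, the fit over all 8 libraries (13172 genes) called 1, 1, 4 and 14 of them. Over libraries 1 to 3, 0, 0, 1 and 9 were recovered (13171 genes), and 0 at any size for the interaction (13132 genes). No unchanged gene was called. Few changes below 16-fold were thus recovered in these simulations. The spread used includes the library labelled CD54-negative replicate 5. Recovery over libraries 1 to 3 and for the interaction therefore need not be that of the real fits. On the real counts, 409 genes were called over libraries 1 to 3 and 203 over all 8.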

Additional observations from a re-analysis of the deposited data

Results flagged for a closer look

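In 27 of 68 groups of 4 libraries, 2 groups for each of the 34 genes, 1 library lay far from the other 3 by Dixon's ratio, the gap to the nearest library divided by the whole range, above its critical value for 4 libraries. The critical value flags about 5% of groups of normally spread values. CPM need not be so spread, and the share among all tested genes was not computed, so 5% is no background for these genes. The library labelled CD54-negative replicate 5 was also the highest of its group for 31.8% of all tested genes. The genes share the same libraries, so these flags are not separate events. The library concerned was numbered 5 and the highest of its group in all 27. For 20 genes it was the library labelled CD54-negative replicate 5. The ratio there was 0.984 for Ifit1, 0.983 for Ifit3, 0.972 for Rsad2 and Oasl1, 0.961 for Cmpk2, 0.958 for Irf7, 0.946 for Ifit1bl1 and 0.943 for Parp14. It was 0.934 for Isg20, 0.925 for Ifit2, 0.922 for Trim30a, 0.910 for Ifih1, 0.898 for Oasl2, 0.894 for Oas3, 0.893 for Isg15 and 0.891 for Dhx58. It was 0.850 for Oas2, 0.841 for Ifi204, 0.836 for Usp18 and 0.834 for Rtp4. Mx1, Mx2, Ifi44, Ifitm1 and Ifitm6, which differed between the groups in all 8 libraries, are not among these 20. For 7 genes it was CD54-positive library 5, with ratios of 0.921 for Isg15, 0.881 for Irf7, 0.875 for Cmpk2, 0.868 for Xaf1, 0.857 for Ifit1, 0.853 for Oasl2 and 0.8294 for Rtp4. Of the 11 marker lists, only the epithelial one had such a library, the one labelled CD54-negative replicate 5, at 65.4 CPM against a median of 8.30 CPM in the other 3 (ratio 0.873).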

How the results depend on the processing

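The number of the 34 genes past the threshold over all 8 libraries, 0 with edgeR and TMM scaling, was 2 with library sizes only, 3 without a filter, 2 with the 10 CPM filter, 5 with DESeq2, 6 with limma-voom and 3 with the replicate block, and it ran from 0 to 7 when each library was left out in turn. Calls over all genes moved too, from 203 in the main test to 289, 365, 245, 1221, 856 and 541 in the same order. With a library left out they ran from 4 to 578. Over libraries 1 to 3 (0 in the main test) it was 2 with library sizes only, 2 with upper-quartile scaling, 13 without a filter (where 1596 genes were called in all, against 409 in the main test), 5 with the 10 CPM filter, 11 with DESeq2, 8 with limma-voom and 1 with the replicate block, and 0 to 1 with a library left out. Under the other settings named, 384, 424, 611, 1742, 983 and 282 genes were called in all, in that order. With a library left out, 14 to 330 genes were called. For the interaction (0) it was 3 without a filter and 4 with DESeq2, and leaving out a library numbered 5 leaves no such fit. Interaction calls over all genes rose from 2 in the main test to 196 without a filter and 435 with DESeq2. The 89 pathway genes, of which 3 passed, gave 8 with library sizes only, 6 without a filter, 12 with DESeq2, 19 with limma-voom, 12 with the replicate block, 10 without both libraries numbered 5, and 0 to 17 with a library left out. Calls over all genes were those given above for all 8 libraries, and 409 without both libraries numbered 5.

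Some members changed sign over all 8 libraries. Ifit3 (-0.59) was at 2.20 with limma-voom, 1.34 with the replicate block, 2.10 without both libraries numbered 5, and -1.16 to 2.72 with a library left out. Oasl1 (-0.24) was at 0.25 with library sizes only, 1.76 with limma-voom, 1.39 with the block, 2.43 without both, and -0.61 to 2.54. Parp14 (-0.47) was at 0.04, 1.46, 1.04 and 1.66 under the same 4 settings, and -0.85 to 1.89. Irf7 (0.41) ran from -0.41 to 2.71 with a library left out. For these 4 genes the highest value came without the library labelled CD54-negative replicate 5. The other named members kept their sign. Using library sizes only moved the median of all tested genes over the 8 libraries from -0.07 to 0.17 and that of the members from -0.44 to 0.04. The cause of the other changes was not tested. The labels do not say whether same-numbered libraries share an animal, and the main test did not use the number. Across genes their deviations from the group means correlated at -0.16, 0.11, 0.16 and 0.37 for numbers 1, 2, 3 and 5, and CD54-negative library 1 correlated best with CD54-positive library 3 (0.17). For CD54-negative libraries 2 and 5 the same number gave the highest correlation. For CD54-negative library 3 it tied with CD54-positive library 1 (0.16). At the spread over all 8 libraries (a biological coefficient of variation of 0.858), large changes could be missed as well as small ones. In the simulated counts, the fit over all 8 libraries recovered 4 of 50 genes at 8-fold and 14 of 50 at 16-fold.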
